A study of Mus musculus with 6 samples.

Results

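Nr4a1, Egr1, Egr2, Fos, Junb, Dusp2 and Nfkbia are immediate early genes of the T cell receptor response. Their chromatin was described in mature CD4+ and mature CD8+ T cells from the thymus of C57BL/6 mice. The genes were chosen by name, each with a fixed window of 30 or 40 kb on mouse build mm9. Together the windows overlapped 18 of the 16542 H3K4me3 domains found in either cell type over the whole genome, and 1 of the 18 reached past its window. All 7 members had a domain in CD4 and in CD8, while 93.2% of the 16542 domains were present in CD4 and 88.1% in CD8.

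The groups were CD4 H3K4me3, CD8 H3K4me3, CD4 H3K36me3, CD8 H3K36me3, CD4 input and CD8 input, with 1 library each. Chromatin was cut to mononucleosomes with micrococcal nuclease (MNase), an enzyme that digests the DNA between nucleosomes, and precipitated with rabbit polyclonal antibodies, while the input had no antibody. All cells shared the same strain and carried no treatment named in the labels. The labels give no age, number of animals or sort gate. With 1 library per group no difference has a replicate check, no p-value is given, and all intervals cover counting error only.

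Immediate early genes are switched on within minutes of a receptor signal without the need for new protein. Several encode transcription factors that start the next wave of expression, and others encode inhibitors that shut the signal down. In the thymus these genes respond to the receptor signals by which T cells are selected. H3K4me3, a histone mark of active promoters, lies around the start of a gene, and H3K36me3, a mark laid down behind elongating RNA polymerase, lies over the transcribed body and is strongest towards its end. In short genes the regions of both marks therefore lie close together.

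The libraries held between 6730337 and 12114294 reads on chromosomes 1 to 19, X and Y. The 7 windows took 13050 reads of the CD4 and 19286 of the CD8 H3K4me3 library, 995 and 866 reads of the H3K36me3 libraries, and 1022 and 875 reads of the inputs. Away from enriched regions, H3K4me3 background was 19.1% of the input level in CD4 and 1.2% in CD8, and H3K36me3 background was 31.6% and 32.5%. An H3K36me3 level equal to input is therefore above this background. Distinct start positions made up 54.4% of the CD4 and 31.4% of the CD8 H3K4me3 reads. The cell labels were checked at 3 lineage loci, whose windows were placed from general knowledge of mm9. H3K4me3 gave 597 reads in CD4 and 8698 in CD8 at Cd8a and Cd8b1, 2256 in CD4 and 103 in CD8 at Cd4, and 5800 in CD4 and 62 in CD8 at Zbtb7b, which encodes the helper lineage factor. Each locus followed its label.

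The DNA just upstream of the gene starts is shown for 4 members, because their RefSeq promoters held a match to a motif of serum response factor or NF-kappaB, factors that act at immediate early genes. Fos held such a match too, further from its start, and is described without its sequence. RefSeq sequences were found for 6 of the 7 members. They refer to build GRCm38.p6, so they cannot be laid on the mm9 windows base by base. Each line gives the 250 bases before the start, 5′ to 3′ on the gene's strand, with motif matches in capitals.
Nr4a1, chr15:101266596-101266845, plus strand: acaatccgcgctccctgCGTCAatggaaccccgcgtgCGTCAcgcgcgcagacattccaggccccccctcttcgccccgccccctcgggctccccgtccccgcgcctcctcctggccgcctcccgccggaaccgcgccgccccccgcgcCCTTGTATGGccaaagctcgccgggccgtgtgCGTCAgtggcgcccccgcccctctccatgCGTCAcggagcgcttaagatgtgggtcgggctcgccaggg
Egr2, chr10:67537619-67537868, plus strand: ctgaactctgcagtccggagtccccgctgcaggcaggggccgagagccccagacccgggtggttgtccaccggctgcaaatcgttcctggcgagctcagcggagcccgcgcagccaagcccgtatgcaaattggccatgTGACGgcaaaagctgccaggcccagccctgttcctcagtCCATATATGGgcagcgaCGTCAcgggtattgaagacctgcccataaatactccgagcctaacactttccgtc
Dusp2, chr2:127335909-127336158, plus strand: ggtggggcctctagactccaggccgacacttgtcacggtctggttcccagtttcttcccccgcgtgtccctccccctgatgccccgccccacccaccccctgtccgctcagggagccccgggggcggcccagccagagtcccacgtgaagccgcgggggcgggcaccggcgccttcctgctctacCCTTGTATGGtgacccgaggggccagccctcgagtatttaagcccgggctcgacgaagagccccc
Nfkbia, chr12:55492648-55492897, minus strand: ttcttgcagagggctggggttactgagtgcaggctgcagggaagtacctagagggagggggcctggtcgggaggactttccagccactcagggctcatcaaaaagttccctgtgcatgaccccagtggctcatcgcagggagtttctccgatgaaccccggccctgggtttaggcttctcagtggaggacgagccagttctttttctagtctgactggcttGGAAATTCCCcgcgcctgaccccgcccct

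The capitals mark 5 motifs. These are the CArG box bound by serum response factor, the same box with 1 of its 6 central bases changed to C or G, the NF-kappaB site, TATAAA on the gene's strand, and TGACG, the core of the cyclic AMP response element. All but TATAAA were searched on both strands, and no match overlapped another motif. Egr2, shown at the middle of its 5 listed starts, held the exact box CCATATATGG, which 1.47% of 32851 RefSeq promoters of the same length contain. Nr4a1 and Dusp2 held the same changed box, CCTTGTATGG, and 7.24% of promoters hold such a box. Nfkbia held GGAAATTCCC, a match to the NF-kappaB motif found in 7.25% of promoters and, within the same gene set, also in Fos as GGAGACCCCC. TGACG or its complement occurred 4 times in Nr4a1, 2 times in Egr2, 2 times in Fos and once in Junb, against 17.8% of promoters with any match. Fos also held TATAAA, found in 7.59% of promoters. A match describes the letters only and is not a binding site.

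To define H3K4me3 domains, 200 bp bins that reached 4 times the depth-scaled input of their cell type were joined across gaps of up to 400 bp, and domains under 20 reads were dropped. Input was set to at least 3 reads, so in bins with few input reads a bin needed 13 reads in CD4 or 15 in CD8. Domains of both cell types were merged where they overlapped, and the merged domain with the most reads stands for its window as the leading domain. Levels are per length of the merged domain in both cell types, while widths are those of each cell type. Leading domains were wide but not unusually dense. Their median width was 3000 bp in CD4 and 2800 bp in CD8, against 1000 bp for all domains in each cell type. The median level was 29.1 RPKM (reads scaled to length in kb and to the library total) in CD4 and 50.4 in CD8, against 27.8 and 38.7 over all domains. The leading domain was chosen by its reads, which favours wide domains, so these medians are a description.

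**Figure D1:**
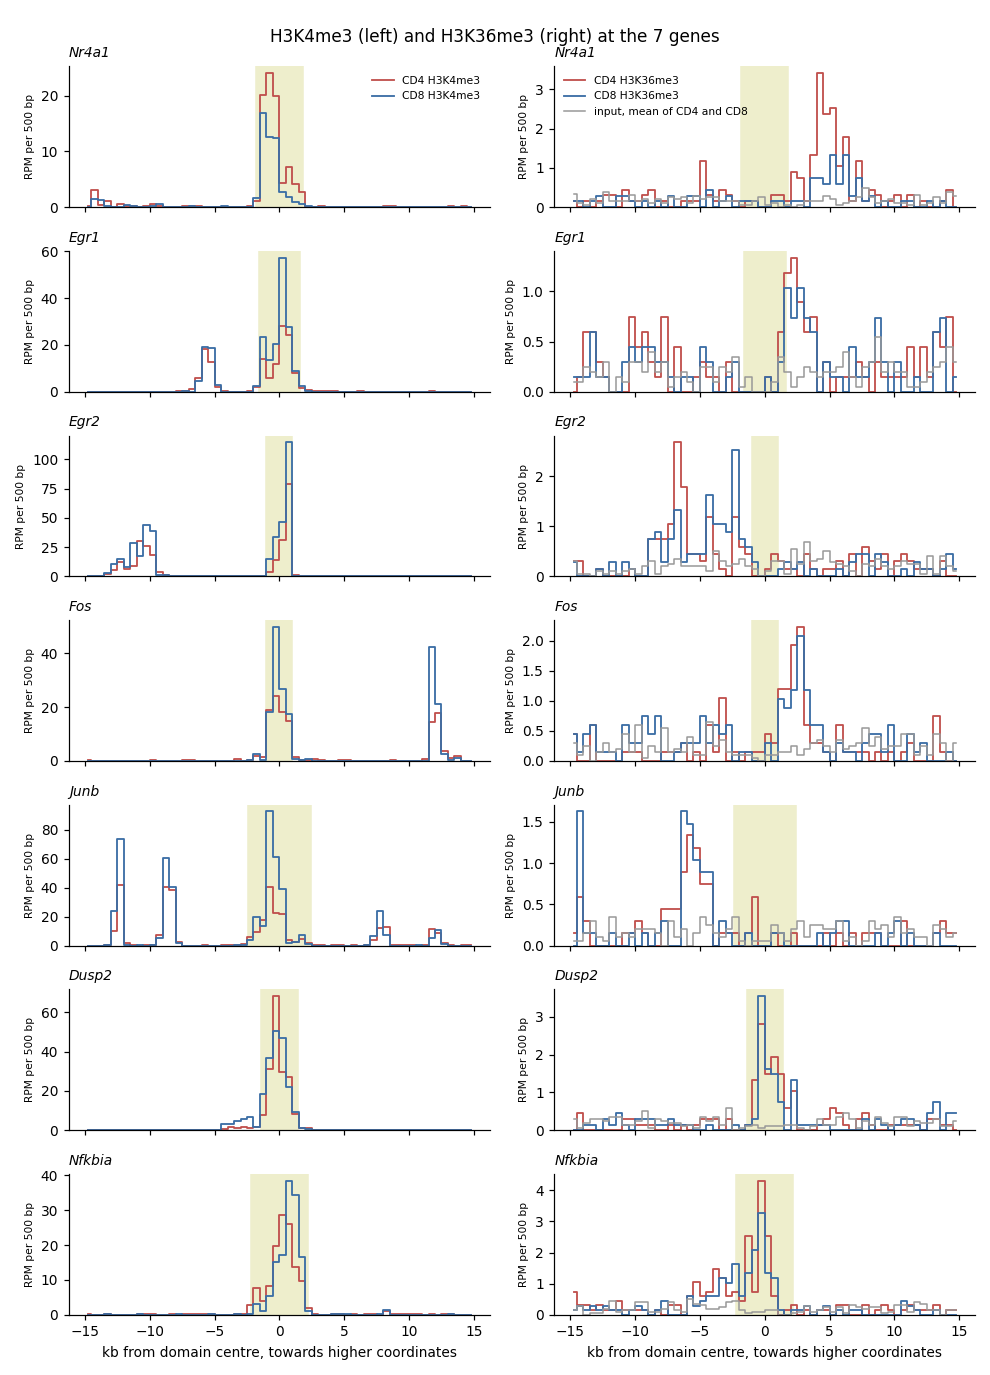
Reads scaled to the library total (RPM) in 500 bp steps around the centre of the leading H3K4me3 domain (shaded) in the 7 windows, with H3K4me3 on the left and H3K36me3 on the right, CD4 in red, CD8 in blue and the mean input in grey. H3K36me3 is high on the right of the shaded domain at Nr4a1, Egr1 and Fos, on its left at Egr2 and Junb, and inside it at Dusp2 and Nfkbia.

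Nr4a1 encodes the orphan nuclear receptor Nur77, widely used as a reporter of receptor signal strength. The window held 1205 H3K4me3 reads in CD4 and 827 in CD8, 192 H3K36me3 reads in CD4 and 104 in CD8, and 120 input reads in CD4 and 117 in CD8. It was the only one of the 7 windows with more CD4 than CD8 H3K4me3 reads. Its leading domain at chromosome 15:101096801-101100400 had 890 reads in CD4 and 598 in CD8, or 23.0 RPKM (95% interval 21.6 to 24.6) and 13.7 RPKM (12.6 to 14.9). In both cell types this was the lowest level per length of the 7 leading domains. Distinct start positions in CD4 numbered 516 over 3.6 kb here and 652 over 4.8 kb at Junb. Per kb these counts are close, so with repeated reads removed Nr4a1 was not set below Junb in CD4, and no order of the 2 is read. The domain measured 3.2 kb in CD4 and 2.4 kb in CD8, but 3.2 kb in CD4 and 3.4 kb in CD8 with 1 read kept per position, so the order of the widths depends on how repeated reads are treated. At 8-fold over input it measured 2800 bp in CD4 and 1400 bp in CD8.

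Relative to the median of the 13451 domains present in both cell types, Nr4a1 was 2.29-fold higher in CD4 (2.06 to 2.54), a log2 ratio of 1.19. A domain was called different at 2-fold or more, with 1 outside a counting interval stricter than the 95% intervals printed here. Nr4a1 was the single leading domain called, 1 of 7, while the same rule called 21.5% of all 16542 domains higher in CD4 and 4.84% higher in CD8. The members' share is not above that background. With scaling to total reads the log2 ratio was 0.75 and with 1 read kept per position 0.80, and neither gave a call. With the background of each library subtracted it was 1.19.

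The CD4 excess was not even along the domain. Within the first 2 kb at lower coordinates there were 712 reads in CD4 and 544 in CD8, for a log2 ratio of 1.01 (0.85 to 1.17). Within the last 1.6 kb, in the direction of transcription, there were 178 reads in CD4 and 54 in CD8, for a log2 ratio of 2.34 (1.89 to 2.81). With total reads the ratios were 0.56 and 1.90, and with 1 read per position 0.54 and 1.74. The split was placed after the profile was seen, so the contrast between the parts is a description. The last part held 1 CD4 input read, at a background of 0.202 CD4 H3K4me3 reads per input read.

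H3K36me3 at Nr4a1 began beyond the domain. Over the 5 kb on its higher side, downstream by the RefSeq strand, there were 96 reads in CD4 and 38 in CD8, with 11 input reads in CD4 and 12 in CD8. This was 13.2-fold over input in CD4 (7.05 to 27.3) and 4.67-fold in CD8 (2.39 to 9.83). Within the domain itself 7 reads in CD4 and 5 in CD8 were found, beside 7 input reads in each cell type. In the 4 successive kilobases from chromosome 15:101102000, H3K36me3 reads numbered 29, 33, 20 and 10 in CD4 and 9, 10, 15 and 6 in CD8.

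Over both 5 kb flanks, H3K36me3 at Nr4a1 had 116 reads in CD4 and 48 in CD8, and was 2.39-fold higher in CD4 (1.70 to 3.43), a log2 ratio of 1.26. It was the only member called. Around their leading domains, the flanks of 4 members passed 2-fold over input in at least 1 cell type, Nr4a1, Egr1, Fos and Junb. On the base of the background the call is therefore 1 of 4. Egr2 would join these members by its wide domain, at 2.68-fold in CD4, and with inputs pooled Egr1 and Junb would leave them. A single call among so few members shows no enrichment over the background. That background was 1.55% called higher in CD4 and 0.982% higher in CD8 of the 6010 domains whose flanks passed 2-fold over input in either cell type. Both marks were called higher in CD4 at 0.316% of those domains. The H3K36me3 call held with total reads, with 1 read per position and with 10 kb flanks, and over the whole window the log2 ratio was 0.87 without a call. With all reads counted, Nr4a1 thus combined the lowest H3K4me3 level per length of the members with an H3K36me3 flank above 98.9% of all domains in CD4.

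Of 3 further domains in the Nr4a1 window, the one at chromosome 15:101071201-101071800 was present as a domain in CD4 and not in CD8. It had 65 reads in CD4 and 12 in CD8, 8.32-fold higher in CD4 (4.46 to 16.9), and was also called with total reads and with 1 read per position. Another CD4 domain at chromosome 15:101084201-101084600 had 30 and 15 reads in CD4 and CD8, and its call was lost with total reads and with 1 read per position. The domain at chromosome 15:101076401-101077400, with 114 reads in CD4 and 125 in CD8, was not called. Which genes these small domains belong to was not analysed here.

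Egr1 and Egr2 encode zinc finger transcription factors that carry the receptor signal to later genes, and Egr2 also takes part in T cell tolerance. The Egr1 window held 1504 H3K4me3 reads in CD4 and 2454 in CD8, 107 H3K36me3 reads in CD4 and 95 in CD8, and 135 input reads in CD4 and 94 in CD8. Its leading domain at chromosome 18:35019401-35022600 had 1000 reads in CD4 and 1873 in CD8, or 29.1 and 48.3 RPKM. The log2 ratio was -0.29 (-0.40 to -0.17), so CD4 was lower by less than the 2-fold of a call. A separate domain 5.7 kb towards lower coordinates, chromosome 18:35014401-35016200, had 411 reads in CD4 and 539 in CD8 and a log2 ratio of 0.23 (0.04 to 0.42), which was -0.22 with total reads.

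H3K36me3 at Egr1 sat at the upper edge of the domain and just beyond it. The 5 kb on the higher side held 35 reads in CD4 and 29 in CD8, which was 1.89-fold over input in CD4 (1.12 to 3.22) and 3.29-fold in CD8 (1.66 to 6.90). The 5 kb on the lower side held 7 and 10 reads, with intervals that included the input level in both cell types. The CD4 over CD8 log2 ratio of the flanks was 0.09 (-0.57 to 0.76).

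The Egr2 window held 2657 H3K4me3 reads in CD4 and 4618 in CD8, 185 H3K36me3 reads in CD4 and 177 in CD8, and 208 input reads in CD4 and 193 in CD8. It contained 2 strong domains, and the one with the most reads may not be that of Egr2. RefSeq lists Ado, on the opposite strand, as the next gene beyond Egr2. The domain at lower coordinates, chromosome 10:66998401-67002200, was 3.8 kb wide in both cell types, with 1195 reads in CD4 and 2012 in CD8. The domain with the most reads lay 11.3 kb further on at chromosome 10:67010601-67012600, with 1365 reads in CD4 and 2538 in CD8. On the plus strand of Egr2, the 3 kb with the most H3K36me3 lay 3.08 kb downstream of the wide domain. They lay 8.08 kb upstream of the domain with the most reads, both from the median H3K4me3 read. On the same strand, H3K36me3 in the 5 kb downstream of the domain with the most reads was 0.47-fold over input in CD4 (0.22 to 0.91). In CD8 it was 0.37-fold (0.15 to 0.82). Downstream of the wide domain it was 4.19-fold in CD4 (2.54 to 7.17) and 2.55-fold in CD8 (1.47 to 4.53). Which domain belongs to Egr2 was not tested. The one with the most reads stands for it in the medians, counts and ranks. With the wide domain instead, the median width of the 7 was 3200 bp in CD4 and 2800 bp in CD8.

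Neither domain was called different. The wide domain had 29.3 RPKM in CD4 and 43.7 in CD8 and a log2 ratio of -0.13 (-0.24 to -0.03). The domain further on had 63.6 RPKM in CD4 and 105 in CD8 and a log2 ratio of -0.27 (-0.37 to -0.18). Its reads were concentrated, with 37.3% of them in 1 bin of 200 bp in CD4 and 36.6% in CD8. The fullest bin of the wide domain held 15.9% of its reads in CD8.

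H3K36me3 between the 2 Egr2 domains ran in opposite directions at its 2 ends. The 5 kb beyond the wide domain held 61 reads in CD4 and 38 in CD8, for a log2 ratio of 0.67 (0.06 to 1.29). The 5 kb before the domain further on held 35 reads in CD4 and 66 in CD8, for a log2 ratio of -0.93 (-1.56 to -0.32). The 2 stretches overlap in part. In the kilobase from chromosome 10:67004000 there were 24 reads in CD4 and 12 in CD8, and in that from chromosome 10:67009000 there were 10 and 23. Over both flanks the log2 ratio was 0.72 (0.21 to 1.25) around the wide domain and -0.67 (-1.23 to -0.12) around the other, and neither was called.

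**Figure D2:**
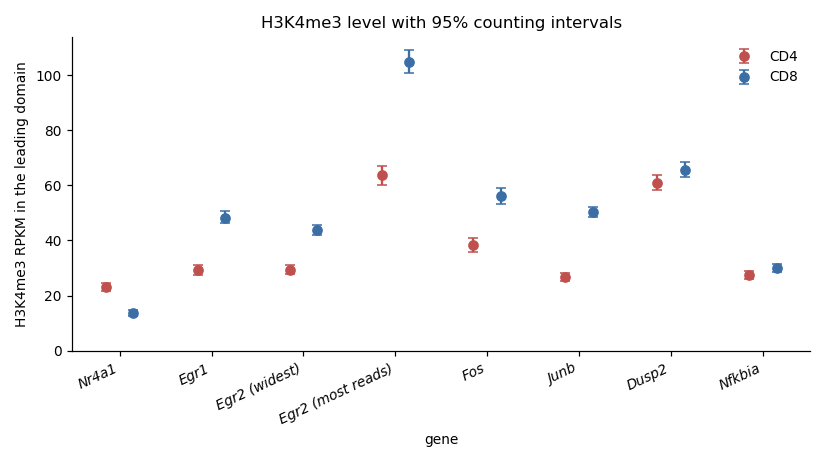
H3K4me3 level in RPKM over the leading domain of each gene, CD4 in red and CD8 in blue, with 95% counting intervals and both domains of the Egr2 window. RPKM follows the library total, and on this scale CD4 lies above CD8 at Nr4a1 alone, 23.0 against 13.7 RPKM.

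Fos and Junb encode subunits of the AP-1 transcription factor, in which Fos and Jun family proteins pair. The Fos window held 1349 H3K4me3 reads in CD4 and 2248 in CD8, 109 H3K36me3 reads in CD4 and 140 in CD8, and 132 input reads in CD4 and 146 in CD8. Its leading domain at chromosome 12:86814201-86816200 had 821 reads in CD4 and 1359 in CD8, or 38.3 and 56.1 RPKM. The log2 ratio was -0.11 (-0.23 to 0.02), an interval that includes no difference. A second domain lay 12.1 kb towards higher coordinates at chromosome 12:86826601-86828000, with 377 reads in CD4 and 793 in CD8 and a log2 ratio of -0.45 (-0.63 to -0.27).

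Fos showed a sharp change from one mark to the other. The domain held 7 H3K36me3 reads in CD4 and 2 in CD8, while the 5 kb downstream held 57 in CD4 and 54 in CD8. This was 4.31-fold over input in CD4 (2.55 to 7.57) and 3.19-fold in CD8 (1.95 to 5.35). The kilobase from chromosome 12:86817000 alone had 32 reads in CD4 and 22 in CD8, beside 5 and 3 input reads. The downstream log2 ratio between cell types was 0.06 (-0.50 to 0.63). This interval includes no difference.

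The Junb window held 2972 H3K4me3 reads in CD4 and 4934 in CD8, 86 H3K36me3 reads in CD4 and 71 in CD8, and 118 input reads in CD4 and 82 in CD8. With 5 domains it was the most crowded window. Its leading domain at chromosome 8:87499801-87504600 had 1377 reads in CD4 and 2931 in CD8, or 26.7 and 50.4 RPKM. The log2 ratio of -0.47 (-0.56 to -0.38) was the lowest of the 7, at a 1.39-fold higher level in CD8. The domain was 4.8 kb in CD4, wider than 99.2% of CD4 domains, and in CD8 it was split into 2 domains of which the wider had 3.0 kb. With 1 read per position the CD8 domain was also 4.8 kb, and at 8-fold over input the domain was 3000 bp in CD4 and 2600 bp in CD8, so this width difference depends on these settings. The other 4 domains of the window had log2 ratios from -0.43 to 0.78, and none was called.

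H3K36me3 was not above input over the Junb domain. Over the 4.8 kb of the leading domain there were 8 H3K36me3 reads in CD4 and 3 in CD8, with 14 and 5 input reads. H3K36me3 lay on the lower side, where the 5 kb beside the domain held 40 reads in CD4 and 43 in CD8, 3.18-fold (1.80 to 5.82) and 3.34-fold (1.91 to 6.07) over input. The most marked 3 kb there, chromosome 8:87495201-87498200, lie between the leading domain and a domain at chromosome 8:87493001-87494400 with 943 H3K4me3 reads in CD4 and 1300 in CD8. RefSeq lists Prdx2, on the plus strand, as the neighbour on that side of Junb. By the strand of Junb, the centre of these 3 kb lay 4.94 kb downstream of the median H3K4me3 read of the leading domain. Whether the H3K36me3 there belongs to Junb or to Prdx2 was not tested, because no mm9 gene ends were used.

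Dusp2 encodes a nuclear phosphatase that inactivates MAP kinases, and Nfkbia encodes IkappaBalpha, which holds NF-kappaB in the cytoplasm and is itself an NF-kappaB target. Both are feedback inhibitors. They were the members in which the 2 marks lay on the same stretch of chromatin. The leading domain of Dusp2 at chromosome 2:127161801-127164600 had 1833 H3K4me3 reads in CD4 and 2226 in CD8, and 59 H3K36me3 reads in CD4 and 51 in CD8. The H3K36me3 was 11.1-fold over input in CD4 (5.30 to 27.0) and 25.1-fold in CD8 (8.12 to 126). The inputs held 8 and 3 reads there, so the fold is imprecise. Over all domains in the windows, input per kb was 0.570 in CD4 and 0.513 in CD8 of that in the rest of the windows. A fold over input is therefore raised within a domain relative to a fold beside it.

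The leading domain of Nfkbia at chromosome 12:56589801-56594200 had 1297 H3K4me3 reads in CD4 and 1600 in CD8, and 78 H3K36me3 reads in CD4 and 71 in CD8. The H3K36me3 was 10.7-fold over input in CD4 (5.67 to 22.3) and 17.5-fold in CD8 (7.64 to 49.2). In the other 5 leading domains H3K36me3 numbered between 4 and 8 reads in CD4 and between 2 and 6 in CD8. This measure was added after the profiles were seen. Over all 16542 domains 1.2% passed 2-fold over input in CD4 and 1.23% in CD8. Counted over all domains of 2 kb or wider, 7.91% passed 2-fold over input with at least 20 H3K36me3 reads within the domain in CD4 and 8.38% in CD8, and 6.45% passed in both. Dusp2 and Nfkbia passed in both cell types, 2 of 7 members.

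**Figure D3:**
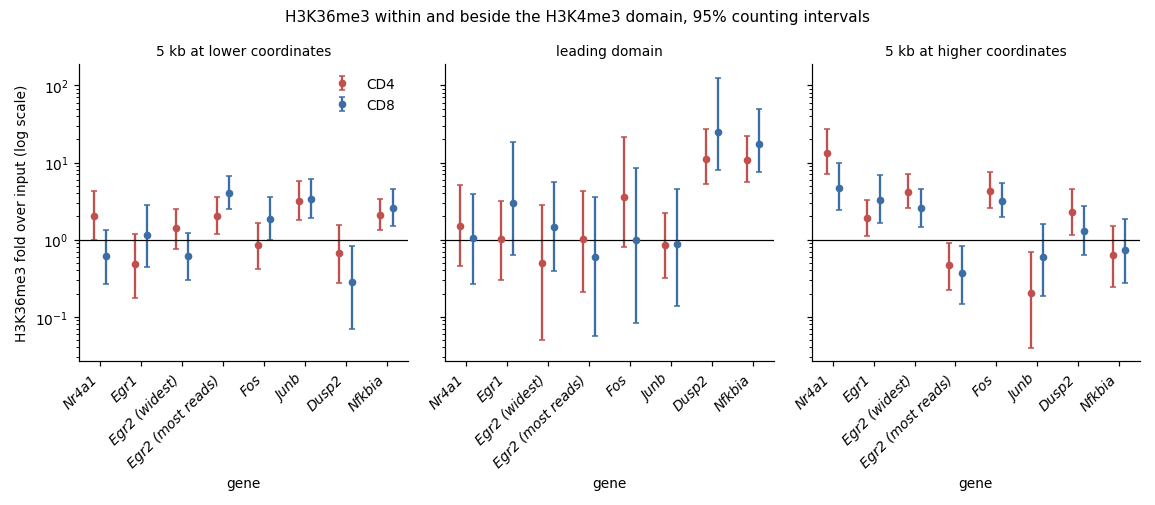
H3K36me3 fold over input (log scale) in the 5 kb at lower coordinates, within the leading H3K4me3 domain and in the 5 kb at higher coordinates, CD4 in red and CD8 in blue, with 95% counting intervals. Dusp2 and Nfkbia stand above 10-fold within the domain, while Nr4a1 reaches 13.2-fold in CD4 beside it. Input was lower per kb within the domains of the windows than beside them, which raises the folds of the middle panel.

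The overlap at Nfkbia had a direction. Nfkbia is on the minus strand by RefSeq, so transcription runs to lower coordinates. In the kilobase from chromosome 12:56591000 there were 301 H3K4me3 reads in CD4 and 247 in CD8 beside 34 H3K36me3 reads in CD4 and 36 in CD8. In the kilobase from chromosome 12:56592000 H3K4me3 numbered 586 in CD4 and 673 in CD8, and H3K36me3 21 and 17. In the next kilobase H3K4me3 still numbered 252 in CD4 and 617 in CD8, and H3K36me3 1 read in each. H3K4me3 numbered 5 and 4 reads in CD4 and 13 and 8 in CD8 in the 2 bins at chromosome 12:56592801-56593200, between bins of 169 and 73 reads in CD4 and 376 and 249 in CD8.

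The Nfkbia window held 1387 H3K4me3 reads in CD4 and 1647 in CD8, 192 H3K36me3 reads in CD4 and 160 in CD8, and 181 input reads in CD4 and 120 in CD8. Its leading domain, the only one in the window, had 27.5 RPKM in CD4 and 30.0 in CD8. The log2 ratio of H3K4me3 was 0.32 (0.21 to 0.42), and -0.13 with total reads. The domain was 4.4 kb wide in CD4, while in CD8 it was split into 2 domains, the wider of 2.8 kb. The lowest 1.4 kb, the downstream end, held 154 reads in CD4 and 52 in CD8, for a log2 ratio of 2.19 (1.72 to 2.67), and the remaining 3 kb held 1143 and 1548 reads, for a log2 ratio of 0.18 (0.07 to 0.29). With total reads these were 1.74 and -0.26. The downstream end had 6 CD4 input reads. As at Nr4a1, the higher CD4 ratio was at the end of the domain that is downstream by the RefSeq strand, and this split was also placed after the profile was seen. With 1 read per position the CD8 domain was 4.2 kb wide, with 800 bp gaps it was 3800 bp, and at 8-fold over input the domain was 2800 bp in both CD4 and CD8, so the width difference depends on these settings. H3K36me3 flanks had a log2 ratio of 0.23 (-0.34 to 0.82).

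The Dusp2 window held 1976 H3K4me3 reads in CD4 and 2558 in CD8, 124 H3K36me3 reads in CD4 and 119 in CD8, and 128 input reads in CD4 and 123 in CD8. The leading domain had 61.0 RPKM in CD4 and 65.6 in CD8, was 2.8 kb wide in both, and had a log2 ratio of 0.34 (0.25 to 0.43), or -0.11 with total reads. Its first 0.6 kb, the upstream end by the RefSeq strand, had 122 reads in CD4 and 435 in CD8, for a log2 ratio of -1.21 (-1.52 to -0.92). The remaining 2.2 kb had 1711 and 1791 reads, for a log2 ratio of 0.55 (0.46 to 0.65). With total reads these were -1.66 and 0.11. This split too was placed after the profile was seen, so the contrast between its parts is a description.

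Upstream of Dusp2 the mark was carried further in CD8. A CD8 domain of 2.4 kb at chromosome 2:127158801-127161200 had 63 reads in CD4 and 280 in CD8, 2.89-fold higher in CD8, with a log2 ratio of -1.53 (-1.95 to -1.13). It was no domain in CD4. The call held with total reads and with 1 read per position. With 1 read per position the upstream and leading CD8 domains joined to 6.6 kb, against 3.8 kb in CD4. Of the 11 domains other than the leading ones this was the only one called higher in CD8, and 2 were called higher in CD4, both at Nr4a1. Over all domains 4.84% were called higher in CD8 and 21.5% higher in CD4, so these counts are near the background, and 1 of the 2 CD4 calls was lost with total reads and with 1 read per position.

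**Figure D4:**
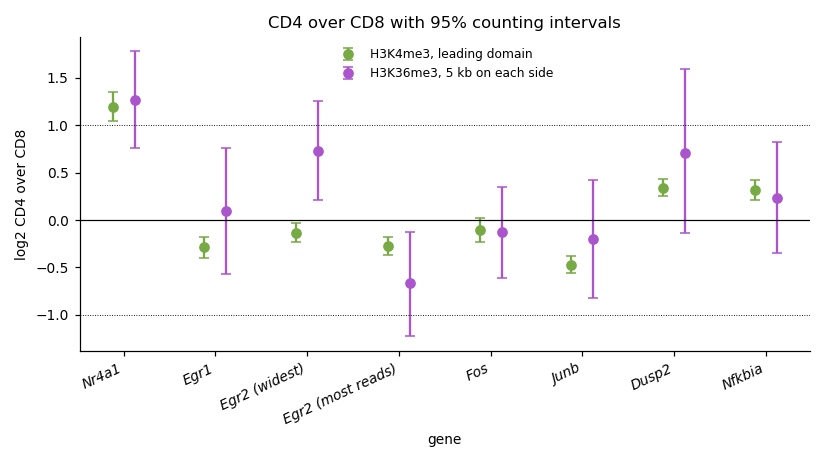
Log2 ratio of CD4 over CD8 for H3K4me3 in the leading domain (green) and H3K36me3 in its flanks (purple), with 95% counting intervals, both domains of the Egr2 window and dotted lines at 2-fold. Both marks lie above 1 at Nr4a1, at 1.19 and 1.26.

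As fold over input on the log2 scale, H3K4me3 in the leading domain minus H3K36me3 in its flanks was 4.16 in CD4 and 5.16 in CD8 at Nr4a1. At Egr1 it was 6.37 in CD4 and 7.86 in CD8, and at Junb 5.88 in CD4 and 7.83 in CD8. At Fos it was 6.81 in CD4 and 7.16 in CD8. At Nfkbia it was 6.13 in CD4 and 6.92 in CD8, and at Dusp2 7.29 in CD4 and 9.66 in CD8. For Nfkbia and Dusp2 the flanks leave out the H3K36me3 that lay within the domain. At the wide Egr2 domain it was 6.14 in CD4 and 7.60 in CD8, and at the Egr2 domain with the most reads 7.62 in CD4 and 7.74 in CD8. These are descriptions, since domains were defined by H3K4me3 over input, flanks by no such rule, and input was lower within domains than beside them. They are also imprecise, because the leading domains held between 2 and 14 input reads in CD4 and between 3 and 7 in CD8. At Fos, for instance, the H3K4me3 fold was 259 in CD4 (88.5 to 1261) and 373 in CD8 (127 to 1811), and no difference between the cell types is read from them.

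The order of H3K4me3 per length in CD4 was Egr2, Dusp2, Fos, Egr1, Nfkbia, Junb and Nr4a1. Egr2 and Dusp2 had overlapping intervals in CD4, as did Egr1 and Nfkbia, and Nfkbia and Junb. In CD8 the order was Egr2, Dusp2, Fos, Junb, Egr1, Nfkbia and Nr4a1, and only the neighbours Junb and Egr1 had overlapping intervals. This order is per merged length, which lowers the CD8 level where the CD8 domain was narrower. In CD8 the widest domain was 3 of 4.8 kb at Junb, 2.8 of 4.4 kb at Nfkbia and 2.4 of 3.6 kb at Nr4a1. Egr2 stands here by its domain with the most reads. By its wide domain it would stand next to Egr1 in CD4, and between Egr1 and Nfkbia in CD8. Distinct start positions in CD4 numbered 384 over 2 kb at the Egr2 domain with the most reads and 740 over 2.8 kb at Dusp2. In CD8 they numbered 537 and 757 over the same lengths, which is about equal per kb. The order of Egr2 and Dusp2 therefore depends on how repeated reads are treated, in CD4 and in CD8.

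The widest domains were not the densest. Junb and Nfkbia had the widest CD4 domains, wider than 99.2% and 98.9% of all CD4 domains, at levels above 48.3% and 49.4% of them. At 8-fold over input their CD4 widths were 3000 bp and 2800 bp, beside 2800 bp at Nr4a1 and at Egr1, so their place among the members depends on the cutoff. The Egr2 domain with the most reads was wider than 82.2% of CD4 domains at a level above 86.8%. Leading domains were wider in CD4 in 3 genes, wider in CD8 in 3 and equal in 1, and the 3 wider in CD8 differed by a single bin.

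**Figure D5:**
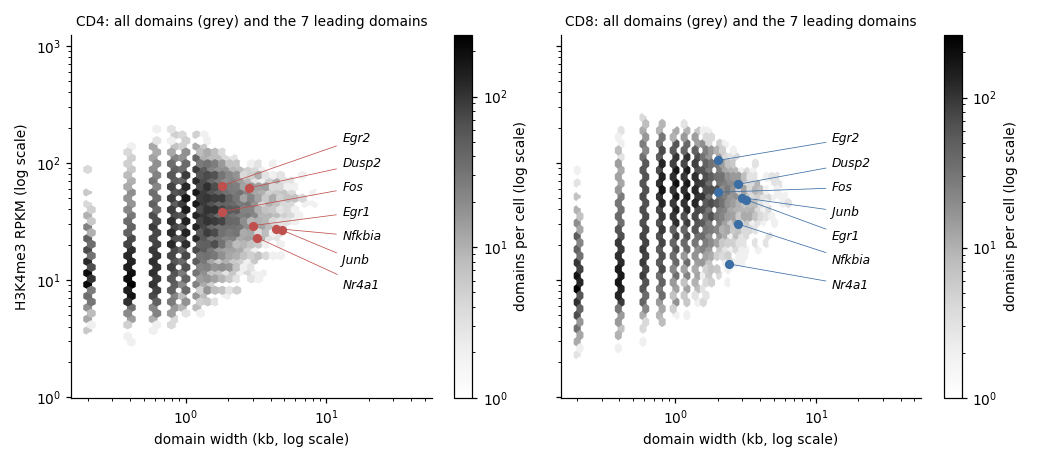
Width in kb against H3K4me3 level in RPKM, both on log scales, for all domains of CD4 cells (left) and CD8 cells (right) in grey and the leading domains of the 7 genes in colour. Widths are those of each cell type, and levels are per length of the merged domain. Nr4a1 is the lowest of the 7 in both panels, at 23.0 RPKM in CD4 and 13.7 RPKM in CD8.

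Over the 7 leading domains the median H3K4me3 log2 ratio was -0.11, with values from -0.47 to 1.19, against 0 by construction over all domains of both cell types. Ratios were above 0 in 3 genes and below 0 in 4. With total reads every H3K4me3 ratio was lower by 0.44 and 6 of the 7 were below 0, so the direction at Dusp2 and Nfkbia depends on the scaling. The median H3K36me3 log2 ratio of the flanks was 0.09. H3K36me3 flanks passed 2-fold over input in 2 of 7 members in CD4, Nr4a1 and Fos, where 29.9% of all domains passed, and in 3 of 7 in CD8, Egr1, Fos and Junb, where 31.4% passed. Both counts are near the background. With inputs pooled, 2 members passed in CD8, Nr4a1 at 2.31-fold and Fos at 2.56-fold, while Egr1 was at 1.53-fold and Junb at 1.95-fold. The members named for CD8 therefore depend on the input used. With the wide domain standing for Egr2, 3 members passed in CD4 and 3 in CD8.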

How the data were processed

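The deposited files hold the position of each aligned read and no score or normalized level. Reads of 33 bp are listed in mm9, the build named in the submitters' processing notes. Which aligner the authors used, how they treated reads that match several places and whether they removed duplicates is not given in the sources used here. A read was counted where its midpoint lay. Printed positions are 1-based.

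Ratios of CD4 over CD8 were centred on the median of domains in both cell types for H3K4me3, and of flanks past 2-fold over input with at least 20 reads in both for H3K36me3. Intervals are exact (Clopper-Pearson, conditional on the sum), and level intervals are exact Poisson, at 95%. The reads carry no molecular identifiers and so cannot be taken as independent molecules. The difference rule was run on simulated Poisson counts for 16542 H3K4me3 domains. There it recovered 89% of domains changed 2.5-fold and 100% of those changed 4-fold, with 3 calls among 16342 unchanged domains. Such counts hold no repeated reads and no spread between libraries, so these values give no error rate for the real libraries.

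The members, windows and tests were chosen with earlier results of these data known. A list of other immediate early genes was not counted, because no mm9 annotation was used. Names of neighbouring genes, strands and promoters come from RefSeq on GRCm38.p6. Alternatives were 1 read per position, 8-fold over input, 800 bp gaps, a thinned CD8 library, total-read scaling, a centre that follows the read count, background subtraction, whole windows, 10 kb flanks, pooled inputs and a 3-fold call. Counting used NumPy 2.4.6 and pandas 2.3.3 under Python 3.11.15, intervals SciPy 1.17.1 and plots matplotlib 3.10.9.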

Additional observations from a re-analysis of the deposited data

How the results depend on the processing

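No paired analysis was possible because each group has 1 library. The widest domain in place of the one with the most reads, the domain counted with its flanks, and H3K36me3 within the domain were chosen after seeing the data. An H3K4me3 domain was present at all 7 members in both cell types at 8-fold over input and also with repeated reads removed. The median width became 3400 bp in CD4 and 3400 bp in CD8 with 1 read per position, and 3200 bp in CD8 with 800 bp gaps. The number of members called higher in CD4 for H3K4me3 was 0 with total reads, 0 with 1 read per position and 0 at 3-fold, where a stricter fold lowers it by construction, and for H3K36me3 it was 0 over the whole window. Members with H3K36me3 flanks past 2-fold over input numbered 1 in CD4 and 0 in CD8 with 10 kb flanks, and 1 in CD4 and 0 in CD8 over the whole window. They numbered 4 in CD4 with the domain counted in, and 5 in CD8 with 1 read per position. For the changes other than the stricter fold the cause was not tested. Of the summary values, 58 others were counted as kept, within 1.5 times the count or close to the median. They include the median H3K4me3 log2 ratio, which went from -0.11 to -0.55 with total reads. No summary ratio changed direction. Of the single-gene values, 194 stayed within their interval or 1 bin and 51 moved. Some of those that moved changed direction, among them H3K4me3 at Dusp2 and Nfkbia with total reads and H3K36me3 at Egr2 with its wide domain. With 20 to 116 H3K36me3 reads around a leading domain, the 95% interval of the ratio between cell types included no difference at 5 of the 7 members, so depth limits what can be said of H3K36me3.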

Other observations

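The inputs held fewer reads on the marked chromatin of these genes than beside it. Bins with more than 3 input reads needed more H3K4me3 reads to enter a domain, so a lower input within domains can be in part built in. Over the 18 domains in the 7 windows, 38.0 kb in all, the CD4 input had 99 reads, or 2.61 per kb, against 923 reads or 4.57 per kb in the rest of the windows, a ratio of 0.570 (95% counting interval 0.459 to 0.702). The CD8 input had 77 reads, or 2.03 per kb, against 798 reads or 3.95 per kb, a ratio of 0.513 (0.401 to 0.649).

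The distribution of H3K4me3 along a domain was compared between cell types. Over 200 bp bins of the leading domain, the Pearson correlation of log2 H3K4me3 reads, with 1 added, between CD4 and CD8 was 0.91 over 16 bins at Egr1, 0.67 over 19 bins at the wide Egr2 domain, 0.93 over 10 bins at the Egr2 domain with the most reads, and 0.65 over 14 bins at Dusp2. The correlation was 0.87 over 18 bins at Nr4a1, 0.87 over 10 bins at Fos, 0.88 over 24 bins at Junb and 0.77 over 22 bins at Nfkbia. Bins share a domain and its base composition, so these values are a description.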
